A study of Mus musculus with 2 samples.

Results

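The integrated stress response and the unfolded protein response of the endoplasmic reticulum (ER) were described here through 10 genes, *Ddit3*, *Trib3*, *Atf3*, *Atf4*, *Chac1*, *Asns*, *Nupr1*, *Ppp1r15a*, *Herpud1* and *Hspa5*, in single cells of mouse small cell lung cancer (SCLC). The genes were chosen by name with earlier results of these data known. Each matched 1 row by symbol among the 27998 genes of the deposited tables. The data are single-cell RNA-seq libraries of 2 tumors, TKO1 and TKO2, each a single tumor dissected from the lung of a different mouse, with 1 10x Chromium library per tumor. Both groups carry the same alleles, Rb-/-, Trp53-/- and Rbl2-/- with a Rosa26 membrane-Tomato or membrane-GFP reporter, on a background mixed from C57BL/6, 129/SVJ and 129/SvOla, and no untreated or wild-type sample was measured. Tumors were induced by Adeno-CMV-cre, a virus whose promoter is not restricted to a cell type, and were taken 7 months later from mice aged 8 to 9 months. Tumors were digested with enzyme, and live cells were sorted. With 1 library per tumor there is no replicate, so the tumor, the mouse and the library cannot be told apart, no comparison has a p-value, and every interval given is a 95% interval that covers counting error only.

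In the integrated stress response, kinases that sense ER stress, amino acid shortage, viral RNA or heme shortage phosphorylate the initiation factor eIF2alpha, which lowers general translation and favors translation of the transcription factor ATF4. ATF4 then raises genes for amino acid supply, redox balance and, when stress lasts, cell death. The unfolded protein response adds sensors in the ER membrane that raise chaperones and the machinery that removes misfolded proteins, and ATF4 is the step that both responses share, although its own activity is set largely by translation and is not read from its mRNA.

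The promoters of the 10 genes were read first, because the known regulators of this response bind short DNA elements. All 10 had 1 window in the RefSeq promoter set (GRCm38.p6), running from 250 bases before the transcription start to 50 bases after it. The C/EBP-ATF element, which ATF4 binds together with C/EBP partners, was searched as TGATGNAA on both strands. It was present in 6 of the 10 windows (*Trib3*, *Atf3*, *Chac1*, *Asns*, *Nupr1* and *Herpud1*), against 3.97% of all 32851 promoter windows. The ER stress element, searched as CCAAT and CCACG with 9 bases of any kind between them, was present in the *Hspa5* window and in 0.119% of all windows, and its variant form, ATTGG and CCACG with 1 base between them, in the *Herpud1* window and in 0.0365% of all windows. The *Ppp1r15a* window held a cyclic AMP response element, TGACGTCA, as did 1.79% of all windows. None of these elements was in the windows of *Ddit3* and *Atf4*. A match of letters is a description and does not show binding. These 30-base stretches are read 5′ to 3′ on the strand of the gene with the matched element in capitals. *Asns* and *Nupr1*, which have opposite tumor differences below, both carry the C/EBP-ATF element, as does *Trib3*. *Hspa5* carries the ER stress element and *Ppp1r15a* the cyclic AMP response element.
Asns, chr6:7693214-7693243, minus strand: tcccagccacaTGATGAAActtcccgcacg
Nupr1, chr7:126625562-126625591, minus strand: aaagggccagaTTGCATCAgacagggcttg
Trib3, chr2:152344028-152344057, minus strand: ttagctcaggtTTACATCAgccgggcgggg
Hspa5, chr2:34772020-34772049, plus strand: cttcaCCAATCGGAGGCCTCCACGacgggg
Ppp1r15a, chr7:45526262-45526291, minus strand: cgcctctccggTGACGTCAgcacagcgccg

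Longer upstream stretches, cut before the first base of any exon annotated in GENCODE M21, are given for 3 genes to show the element in its surroundings. Capitals mark the C/EBP-ATF element in each, and in *Herpud1* also the ER stress element variant closer to the start.
Atf3, chr1:191183341-191183583, minus strand: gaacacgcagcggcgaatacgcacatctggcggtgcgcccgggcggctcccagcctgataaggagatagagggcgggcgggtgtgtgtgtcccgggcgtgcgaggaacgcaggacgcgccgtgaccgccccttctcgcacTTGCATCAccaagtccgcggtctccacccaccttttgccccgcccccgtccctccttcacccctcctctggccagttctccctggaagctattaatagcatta
Chac1, chr2:119350992-119351228, plus strand: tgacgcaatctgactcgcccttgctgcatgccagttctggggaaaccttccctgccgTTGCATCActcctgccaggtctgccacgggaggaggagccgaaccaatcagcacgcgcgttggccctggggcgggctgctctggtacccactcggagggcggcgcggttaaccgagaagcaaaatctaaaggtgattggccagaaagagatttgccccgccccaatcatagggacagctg
Herpud1, chr8:94386179-94386428, plus strand: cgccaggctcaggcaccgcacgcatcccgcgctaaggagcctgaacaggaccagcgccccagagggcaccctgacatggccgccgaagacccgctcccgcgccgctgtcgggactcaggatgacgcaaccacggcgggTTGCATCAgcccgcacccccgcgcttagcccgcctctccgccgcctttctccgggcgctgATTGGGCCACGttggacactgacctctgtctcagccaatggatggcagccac
In *Atf3* and *Nupr1* the element began 110 bases before the RefSeq start, in *Herpud1* 112, in *Chac1* 193 and in *Asns* 23, while in *Trib3* it began 15 bases after the RefSeq start. In GENCODE M21, exons of the same gene cover all 250 bases before the RefSeq start in *Nupr1*, 45 in *Asns* and 120 in *Hspa5*. The matched elements of *Nupr1*, *Asns* and *Hspa5* thus lie in annotated exons.

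Of the deposited barcodes, 3193 in TKO1 and 3568 in TKO2 had more than 500 detected genes and were retained, with medians of 1223 and 1960 unique molecular identifiers (UMIs) per cell. Clusters were called neuroendocrine-marker cells if at least 3 neuroendocrine markers had at least 10 UMIs and were at least 2-fold above the immune-like cells. For this fold, 10 CPM (UMIs per 1000000) were added to both sides. These were 2990 cells (93.6%) in TKO1 and 3381 (94.8%) in TKO2. Their 18 neuroendocrine markers were all detected in both tumors but summed to 23667 CPM in TKO1 and 2122 in TKO2, so the label rests on a far lower marker level in TKO2. UMIs of the deleted genes were found in these cells, *Rb1* at 77.1 and 15.2 CPM, *Trp53* at 49.0 and 63.0 CPM and *Rbl2* at 9.46 and 1.80 CPM, but a tag from the 3′ end can lie outside a deleted part and so checks nothing. The share of UMIs from ribosomal protein genes was 10.6% in TKO1 and 23.1% in TKO2, and the median log2 ratio of TKO1 over TKO2 across 12927 genes with at least 10 UMIs was 0.37. Ratios are therefore also given relative to that median, called relative log2 ratios, while the part of these shares in the results was not tested. The libraries shared 22 barcodes, of which 11 were retained in both. The doublet caller Scrublet marked 0 cells in either tumor and so cannot be taken to have worked.

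The 10 genes together took 2866 CPM (interval 2815 to 2917) of the neuroendocrine-marker cells of TKO1 and 913 CPM (892 to 935) of those of TKO2. The difference was not shared evenly. *Nupr1*, *Atf3* and *Ppp1r15a* were at least 2-fold higher in TKO1 relative to all genes, *Asns* and *Chac1* were at least 2-fold higher in TKO2, and the other 5 lay within 2-fold. Across all genes 23.2% were at least 2-fold higher in TKO1 and 18.7% in TKO2 on the same scale, so 3 and 2 of 10 are close to the background, and what the genes show lies in which of them went which way and by how much. On plain CPM the split was 6 higher in TKO1, with *Ddit3*, *Trib3* and *Hspa5* added, against 1 higher in TKO2 (*Chac1*), beside 31.2% and 12.3% of all genes. With more than 1000 detected genes required, 737 cells of TKO1 and 641 of TKO2 were called neuroendocrine-marker cells. Retained cells of TKO2 had a median of 1015 detected genes, so these 641 were only a part of its cells past that limit. Over these cells the relative split was also 6 against 1, beside 20.6% and 15.6% of all genes. On relative log2 ratios *Ddit3* (1.12), *Trib3* (1.88) and *Hspa5* (1.10) passed 2-fold there and *Asns* (-0.82) did not. The part of the gene limit and of this choice of cells was not tested.

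**Figure D1:**
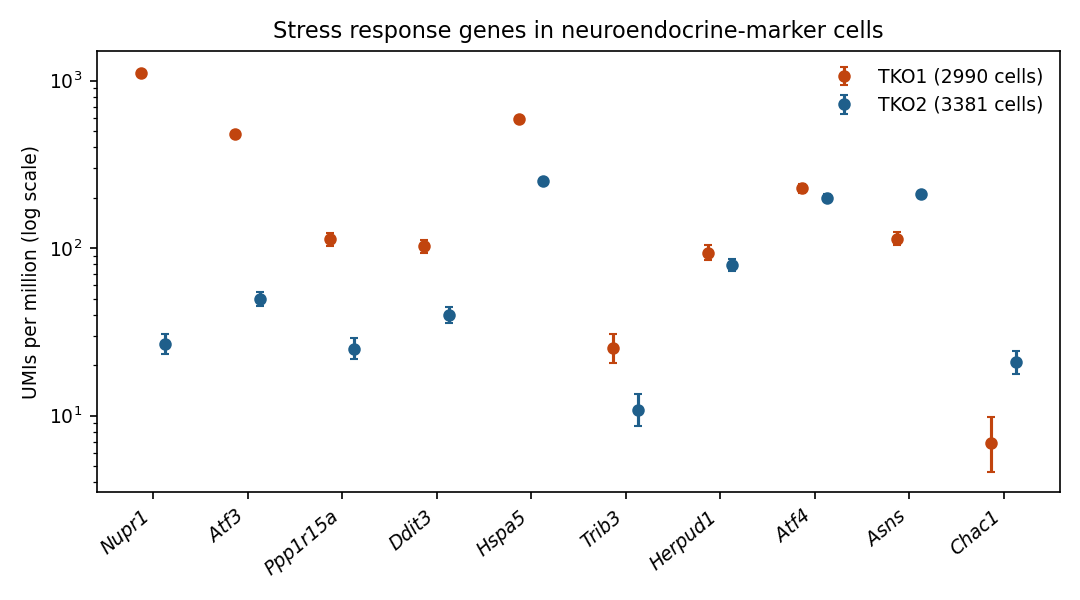
CPM (log axis) of each of the 10 genes, summed over the neuroendocrine-marker cells of TKO1 (2990 cells) and TKO2 (3381 cells), with exact Poisson 95% intervals as bars, ordered by the relative ratio. *Nupr1* and *Atf3* stand far apart between the tumors, *Atf4* and *Herpud1* lie close together, and *Asns* and *Chac1* are higher in TKO2.

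Among the transcriptional regulators, *Atf4* (ENSMUSG00000042406, chr15:80255184-80257541), the factor that carries the response, differed little in mRNA. It had 228 CPM (213 to 242) in TKO1 and 200 CPM (190 to 210) in TKO2, a relative log2 ratio of -0.18, and its direction turned between plain CPM (log2 ratio 0.19) and the relative scale. *Ddit3* (ENSMUSG00000025408, chr10:127290774-127296288) encodes CHOP, a C/EBP family factor linked to death under lasting stress. It had 102 CPM (93.0 to 113) in TKO1 and 40.1 CPM (35.7 to 44.8) in TKO2, a relative log2 ratio of 0.99 that lies just inside 2-fold. In GENCODE M21 the *Ddit3* locus overlaps a second gene model of the same symbol on the same strand, so its reads could be split or lost in counting. Its overlaps with *Mars* and *Gm4189* are on the other strand.

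*Atf3* (ENSMUSG00000026628, chr1:191170296-191218039), a factor induced by ATF4 and also by mitogens and stress kinases, had 481 CPM (460 to 502) in TKO1 and 49.9 CPM (45.0 to 55.1) in TKO2, a 9.64-fold difference and a relative log2 ratio of 2.90. *Nupr1* (ENSMUSG00000030717, chr7:126623249-126630861), a small chromatin-associated stress protein, had the widest gap of the 10. It stood at 1112 CPM (1080 to 1144, 4699 UMIs) in TKO1 and 26.8 CPM (23.3 to 30.7, 208 UMIs) in TKO2, a 41.5-fold difference and a relative log2 ratio of 5.01, which is at the 98.8th percentile of all genes. *Trib3* (ENSMUSG00000032715, chr2:152337422-152344032) encodes a pseudokinase that is an ATF4 and CHOP target and restrains both. It was scarce, at 25.3 CPM (20.7 to 30.6) in TKO1 and 10.8 CPM (8.63 to 13.4) in TKO2, with a relative log2 ratio of 0.86.

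The effectors went in both directions. *Ppp1r15a* (ENSMUSG00000040435, chr7:45522916-45526268) encodes GADD34, the regulatory subunit that directs a phosphatase to eIF2alpha and so ends the response. It had 113 CPM (103 to 124) in TKO1 and 25.1 CPM (21.7 to 28.9) in TKO2, a relative log2 ratio of 1.80. *Asns* (ENSMUSG00000029752, chr6:7675169-7693254), asparagine synthetase, had 114 CPM (104 to 125) in TKO1 and 210 CPM (200 to 220) in TKO2, a relative log2 ratio of -1.25. *Chac1* (ENSMUSG00000027313, chr2:119351229-119354381), which degrades glutathione, had 6.86 CPM (4.59 to 9.85, 29 UMIs) in TKO1 and 20.9 CPM (17.8 to 24.3, 162 UMIs) in TKO2, a relative log2 ratio of -1.97. *Asns* and *Chac1* thus lay opposite to *Atf3* and *Nupr1*. All 4 promoter windows hold the C/EBP-ATF element, whose part in these levels was not tested.

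The ER genes differed less. *Hspa5* (ENSMUSG00000026864, chr2:34771970-34777547) encodes BiP, the main ER chaperone, and had 590 CPM (567 to 613) in TKO1 and 251 CPM (240 to 262) in TKO2, a relative log2 ratio of 0.87. *Herpud1* (ENSMUSG00000031770, chr8:94386438-94395377), a membrane protein of ER-associated degradation, had 94.2 CPM (85.1 to 104) and 79.4 CPM (73.2 to 85.9), a relative log2 ratio of -0.12, and like *Atf4* it turned direction between the scales (0.25 on plain CPM). The loci of *Ppp1r15a* and *Herpud1* overlap those of *Tulp2* and *Gm15890* in the annotation, in both cases on the other strand.

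Shares of cells with a UMI were read after each neuroendocrine-marker cell was thinned at random to 1000 UMIs. This kept 2150 cells of TKO1 and 3020 of TKO2 and left out 840 and 361 shallower ones. For a gene averaging well under 1 UMI per thinned cell, the share largely follows the mean level. *Asns*, for example, averaged 0.104 UMIs in TKO1 and 0.212 in TKO2. The shares thus do not tell more cells from more UMIs per cell. At least 1 of the 10 genes was detected in 81.6% of cells (exact Clopper-Pearson interval 79.9 to 83.2) in TKO1 and in 54.1% (52.3 to 55.9) in TKO2, against 86.7% and 73.5% without thinning. *Nupr1* was detected in 38.9% of cells (36.8 to 41.0) in TKO1 and 1.82% (1.37 to 2.36) in TKO2, and *Atf3* in 32.9% (30.9 to 34.9) and 4.50% (3.79 to 5.30). For *Asns* the order was the opposite, 9.26% (8.06 to 10.6) against 17.5% (16.2 to 18.9), and *Chac1* was detected in 0.791% and 1.92% of cells. *Atf4* was detected in 17.3% and 15.9% of cells and *Herpud1* in 7.49% and 7.78%, with overlapping intervals for each. Without thinning, *Asns* was detected in 12.9% and 30.9% of cells and *Nupr1* in 44.8% and 3.49%.

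More cells of TKO1 than of TKO2 held UMIs of several of the genes. At this depth 21.1% of TKO1 cells and 4.24% of TKO2 cells had UMIs of at least 3 of the 10 genes, and no cell had all 10, with a highest count of 9 in 1 cell of TKO1. Higher shares of single genes raise such counts by themselves. No expected count was set beside them, so they do not show that the genes occur together. *Nupr1* was also the most uneven across cells. Its variance over its mean (Fano factor) was 5.33 in TKO1, where the median of 3558 genes was 1.17, and 1 thinned cell held 29 of its UMIs. The Fano factors of *Hspa5* (1.76), *Ddit3* (1.65), *Ppp1r15a* (1.62) and *Atf3* (1.56) in TKO1 were each above that of at least 95% of those genes, while *Atf4* (1.18) and *Asns* (1.15) lay near the median. In TKO2, where the median of 2943 genes was 1.10, *Atf4* (1.36) and *Atf3* (1.40) were above at least 95% of the genes and *Asns* had 1.19.

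**Figure D2:**
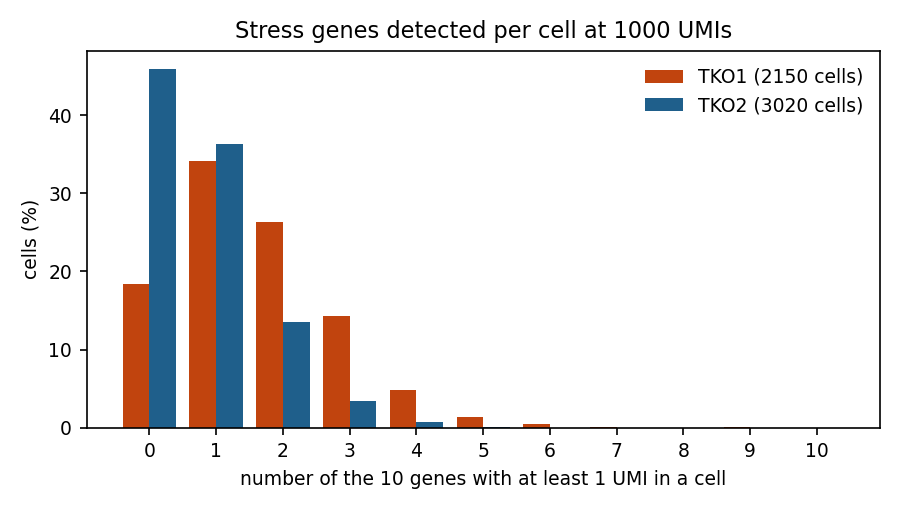
Share of neuroendocrine-marker cells (percent) by the number of the 10 genes with at least 1 UMI, after thinning to 1000 UMIs per cell, in TKO1 (2150 cells) and TKO2 (3020 cells). TKO2 peaks at 0 genes (45.9% of its cells) and TKO1 at 1 gene (34.2%), with a longer tail in TKO1.

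Cell depth moved with most of these levels in TKO1. When the TKO1 neuroendocrine-marker cells were divided by their UMIs into 3 groups of like size, *Trib3* had 46.6 CPM in the lowest group, against 14.8 and 22.5 in the middle and highest groups, and *Ddit3* 142 CPM against 73.2 and 103. *Nupr1* had 1344, 1141 and 999 CPM, and *Asns* 144, 93.8 and 113 CPM. All of the 10 genes except *Atf3* were highest in the shallowest cells of TKO1, and together they summed to 3300, 2831 and 2706 CPM. The middle group was lowest for *Trib3*, *Ddit3*, *Atf4*, *Chac1*, *Asns* and *Herpud1*. The 840 cells left out by thinning all come from the lowest group of 997 cells. In TKO2 the 10 genes summed to 917, 924 and 907 CPM in the 3 groups. The part of cell depth in the tumor difference was not tested.

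The other cell classes gave values from the same libraries. Macrophage-like cells (98 in TKO1 and 121 in TKO2, which also carried some T/NK markers) summed to 1210 CPM (1036 to 1404) of the 10 genes in TKO1 and 906 CPM (786 to 1039) in TKO2. *Atf3* was higher in TKO1 in these cells too, with 238 CPM (165 to 332) against 75.5 CPM (44.0 to 121), a log2 ratio of 1.66 (0.78 to 2.59). *Ppp1r15a* had 126 and 53.3 CPM, a log2 ratio of 1.24 (0.11 to 2.43). *Nupr1* did not show the gap of the tumor cells, with 189 CPM (124 to 275) in TKO1 and 164 CPM (116 to 226) in TKO2, a log2 ratio of 0.20 (-0.57 to 0.96). *Asns* had 3 UMIs in macrophage-like cells of TKO1 and 13 in those of TKO2, a log2 ratio of -1.46 whose interval (-3.91 to 0.40) includes 0.

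At 1000 UMIs, the macrophage-like cells give a second share from the same libraries. It is not a level of free RNA, since no class here should lack these genes, and the part of free RNA was not tested. *Nupr1* was detected in 12.2% of macrophage-like cells (6.01 to 21.3) in TKO1 and 9.82% (5.01 to 16.9) in TKO2. Their medians before thinning were 1433 and 1718 UMIs, against 1393 and 2108 for the neuroendocrine-marker cells. The 1.82% of TKO2 neuroendocrine-marker cells with *Nupr1* lies below the macrophage-like share. So do the shares of *Atf3* (4.50% against 7.14%), *Ppp1r15a* (2.09% against 7.14%), *Hspa5* (20.9% against 26.8%) and *Ddit3* (3.54% against 3.57%) in TKO2. For *Atf3*, *Hspa5* and *Ddit3* the intervals of the classes overlap. In TKO1 *Hspa5* was close to the macrophage-like share, at 37.6% against 36.6%. At these shares a UMI in a single cell is not read as expression by that cell, whereas sums over clusters can still differ beyond counting error, as those of *Atf3* did in TKO2. *Trib3* was detected in 0 of 82 and 0 of 112 macrophage-like cells, which allows up to 3.66% and 2.68% of cells with a UMI at this depth (3 cells of the total) and sets no limit on cells that express it.

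Outside the neuroendocrine-marker class, *Nupr1* was highest in cells with airway markers. The 105 club-like cells of TKO1 had 1647 CPM (1473 to 1837) of *Nupr1*, and the 10 genes summed to 2507 CPM there. Neuroendocrine markers summed to 6996 CPM in the same cells. A cluster of 66 cells in TKO2 carried club markers together with neuroendocrine markers and was left unnamed. It had 996 CPM (825 to 1191) of *Nupr1* and 293 CPM (204 to 407) of *Atf3*, far above the neuroendocrine-marker cells of the same tumor. Whether its cells are tumor cells, airway cells or doublets was not tested.

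Within each tumor, clusters were compared after a clustering that left out 133 listed stress, hypoxia and amino acid genes, so that the genes described did not build the clusters, with 8 clusters in TKO1 and 9 in TKO2 of at least 50 neuroendocrine-marker cells. *Nupr1* lay between 271 and 2262 CPM in the TKO1 clusters and between 0 and 50.2 in the TKO2 clusters, and *Atf3* between 309 and 634 and between 11.8 and 103. *Asns* lay between 67.9 and 136 CPM in TKO1 and between 141 and 289 in TKO2. For these 3 genes no cluster of one tumor reached the range of the other, also on the relative scale, where 5.89% of all genes had non-overlapping ranges that were higher in TKO1 and 8.98% in TKO2. The ranges of *Ddit3*, *Trib3*, *Atf4*, *Chac1* and *Herpud1* overlapped on both scales, and those of *Ppp1r15a* and *Hspa5* overlapped on the relative scale only. With all genes in the clustering, the *Asns* ranges overlapped on plain CPM and those of *Ppp1r15a* and *Hspa5* on neither scale.

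**Figure D3:**
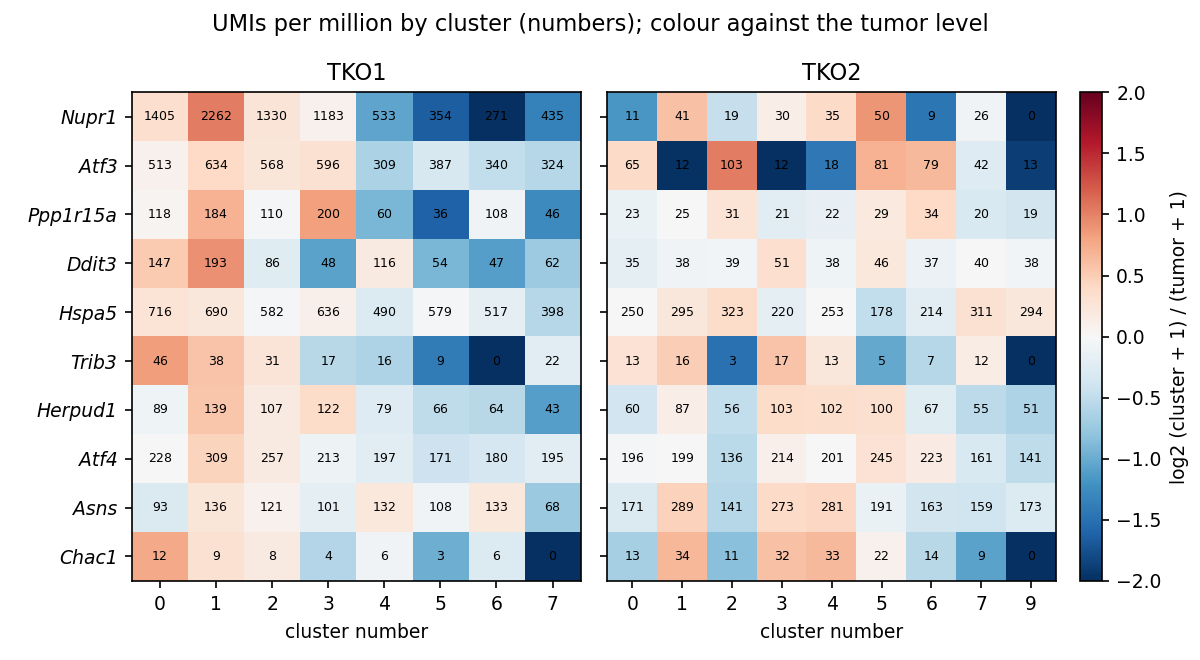
CPM (numbers in the cells) of the 10 genes in each cluster of neuroendocrine-marker cells, from the clustering without the listed stress genes; colour gives the log2 of the cluster level plus 1 over the tumor level plus 1, from -2 (blue) to 2 (red). In TKO2, clusters 1, 3 and 4 are high in *Asns* and *Chac1* and low in *Atf3*, and cluster 2 shows the opposite; in TKO1, cluster 1 is highest in *Nupr1*, *Atf3*, *Ddit3* and *Atf4*.

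In TKO2, the clusters with the most *Asns* and *Chac1* were among those with the least *Atf3*, and clusters 1 to 4 are described because of these values. Clusters 1, 3 and 4 had *Asns* at 289, 273 and 281 CPM and *Chac1* between 31.9 and 33.5 CPM, with *Atf3* at 11.84 to 17.98 CPM. Cluster 2 had *Asns* at 141, *Chac1* at 11.2 and *Atf3* at 103 CPM. *Nupr1* was not low with *Atf3* in clusters 1, 3 and 4. It had 40.7, 29.6 and 35.1 CPM there, 19.3 in cluster 2 and 50.2, its highest, in cluster 5. In clusters 1, 3, 4 and 2, *Trib3* had 15.6, 16.6, 12.8 and 3.21 CPM and *Herpud1* 87.4, 103, 102 and 56.2 CPM. *Atf4* had 199, 214, 201 and 136 CPM, *Hspa5* 295, 220, 253 and 323 CPM and *Ppp1r15a* 25.1, 21.3, 22.3 and 30.5 CPM. The small cluster 9 (66 cells) had *Atf3* at 12.8 CPM without raised *Asns* (173 CPM). These clusters also differed in other genes that were not used to build them. *Psat1*, an enzyme of serine synthesis, had 154, 194 and 213 CPM in clusters 1, 3 and 4 against 38.5 in cluster 2, and *Cth*, of cysteine synthesis, had 69.5, 45.0 and 59.1 CPM against 8.03. The transcription factor gene *Mycn*, which was not left out of the clustering, had 3894, 3909 and 3568 CPM in clusters 1, 3 and 4 and 994 CPM in cluster 2, while the neuroendocrine markers summed to 1819, 1505, 1708 and 3346 CPM in the same order. *Mycn* did not track *Asns* throughout, since clusters 6 and 7 had 3299 and 2965 CPM of *Mycn* and 163 and 159 CPM of *Asns*. In TKO1 *Mycn* was between 0 and 19.4 CPM in every cluster. The listed proliferation genes summed to 686, 3793 and 7553 CPM in TKO2 clusters 1, 3 and 4 and to 768 CPM in cluster 2. Cluster 5 had 8407 CPM of them, with *Asns* at 191 and *Atf3* at 81.1 CPM. The median depths of TKO2 clusters 1, 3, 4 and 2 were 1834, 1974, 2773 and 1374 UMIs. The part of depth, of proliferation and of *Mycn* in the pattern was not tested.

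The high TKO1 levels were uneven as well, with 1 cluster above the rest. In the clustering on all genes, a cluster of 370 cells was led by genes of cilia, among them *Cfap126*, *Tppp3* and *Dynlrb2*, together with *Adm* and *Trib3*. All 6 ciliated markers were detected in it and summed to 652 CPM, against 107 CPM in the other neuroendocrine-marker cells of TKO1, while its neuroendocrine markers summed to 23300 CPM against 23712 CPM. Since *Trib3* helped to build this cluster, its levels are a description. *Trib3* had 104 CPM (76.7 to 138) in it and 15.7 CPM (11.9 to 20.2) in the other cells, a 6.64-fold difference, and *Ddit3* 327 CPM (277 to 384) against 74.9 CPM (66.4 to 84.2). *Nupr1* had 3396 CPM (3230 to 3569) against 832 CPM (803 to 861), while *Asns* (1.25-fold), *Atf3* (1.33-fold) and *Hspa5* (1.37-fold) differed least.

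The cilium-led cluster held 44.9% of the *Trib3* UMIs and 34.9% of the *Ddit3* UMIs of the TKO1 neuroendocrine-marker cells. Its hypoxia genes summed to 18445 CPM against 8348 CPM elsewhere and its proliferation genes to 323 CPM against 2336 CPM, at median depths of 1148 and 1225 UMIs. In the clustering without stress genes, 299 of its cells (80.8%) fell in cluster 1, where they made up 62.8% of the cells. That cluster was highest in *Ddit3* (193 CPM) and *Nupr1* (2262 CPM) but not in *Trib3*. *Trib3* had 38.2 CPM (24.0 to 57.9) in it and 45.9 CPM (31.0 to 65.5) in cluster 0. Without the cilium-led cluster, the relative log2 ratio of *Trib3* was 0.17 and that of *Ddit3* 0.54. *Nupr1* (4.59), *Atf3* (2.85), *Ppp1r15a* (1.61), *Asns* (-1.28) and *Chac1* (-2.41) stayed past 2-fold, so the counts of 3 and 2 held. Since cells with UMIs of these genes could be drawn into the cluster, its removal can lower *Trib3* and *Ddit3* by construction. The same limit holds for the correlations below without this cluster.

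Correlations across cells at 1000 UMIs were weak, and are given as descriptions of cells that share a library and a fixed depth. Over the 45 pairs of genes, the median Pearson r was 0.05 in TKO1 and 0.03 in TKO2. In TKO1, 9 pairs exceeded 0.1, led by *Trib3* with *Nupr1* (0.20), *Ddit3* with *Trib3* (0.17), *Ddit3* with *Hspa5* (0.16), *Chac1* with *Herpud1* (0.15) and *Ddit3* with *Nupr1* (0.14). In TKO2 no pair exceeded 0.1. Without the cilium-led cluster, 4 pairs of TKO1 exceeded 0.1, *Trib3* with *Nupr1* stood at 0.17 and *Ddit3* with *Trib3* at 0.17, and *Ddit3* with *Hspa5* at 0.08. The pair *Ddit3* with *Trib3* depended on depth, since at 2000 UMIs it had r = 0.10 in TKO1 and 0.12 in TKO2, against 0.17 and 0.01 at 1000 UMIs. In counts this sparse, values of this size are no finding, and no difference between the tumors is read from them.

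**Figure D4:**
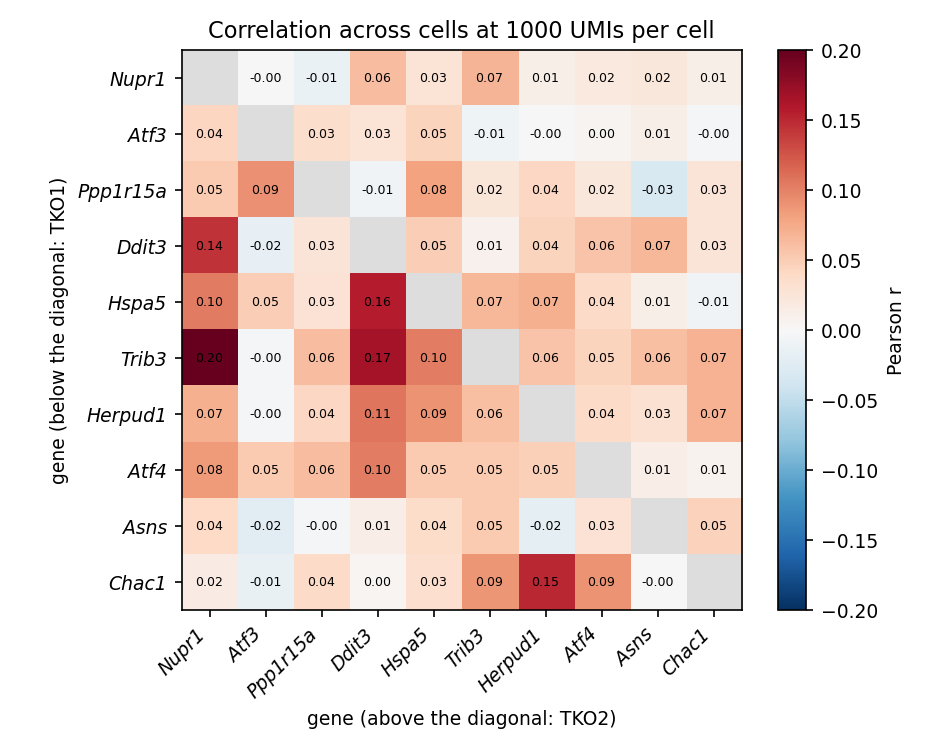
Pearson r between each pair of the 10 genes across neuroendocrine-marker cells thinned to 1000 UMIs, TKO1 (2150 cells) below the diagonal and TKO2 (3020 cells) above it; colour runs from -0.2 (blue) to 0.2 (red). The darkest cells, around *Trib3*, *Ddit3* and *Nupr1*, are in TKO1, and *Atf3* lies between -0.02 and 0.09 with every other gene in both tumors.

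Each gene was also set against the summed UMIs of the other 9. In TKO1 *Trib3* (r = 0.23), *Ddit3* (0.19) and *Nupr1* (0.18) had the highest values, and at most 2 of 3550 other genes correlated more with those same sums. Those other genes each averaged at least 0.05 UMIs per thinned cell. *Trib3* averaged 0.0135 and would not be among them, so no rank is read for it. The sums for *Trib3* and *Ddit3* include the uneven *Nupr1* (Fano factor 5.33). With *Nupr1* alone their r was 0.20 and 0.14, so the values partly repeat those pairs. Without the cilium-led cluster only *Trib3* (0.19) stood apart, with *Ddit3* at 0.10 and *Nupr1* at 0.10, next to *Atf4* (0.10) and *Ppp1r15a* (0.10). *Asns* (0.04), *Chac1* (0.06) and *Atf3* (0.07) had the lowest values over all cells of TKO1. In TKO2 *Trib3* (0.12) and *Ddit3* (0.11) were again the highest, and *Atf3* (0.04) the lowest. In TKO1, *Ddit3* was detected in 10 of the 27 cells with *Trib3* (37.0%, interval 19.4 to 57.6) and in 5.70% (4.75 to 6.77) of the cells without it. In TKO2 it was detected in 2 of the 31 cells with *Trib3* (6.45%, interval 0.791 to 21.4) and in 3.51% (2.88 to 4.24) of the others, and the intervals of the cells with *Trib3* overlap between the tumors.

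Outside the 10 genes, the cells with more UMIs of the 8 ATF4-arm genes (all but *Herpud1* and *Hspa5*) were described by what else they held. The summed arm is carried by different genes in each tumor, *Nupr1* (4699) and *Atf3* (2033) of 9223 UMIs in TKO1 and *Asns* (1627) and *Atf4* (1550) of 4524 UMIs in TKO2 before thinning, so its correlates are not those of 1 common arm and are not compared between tumors. In TKO1 the genes with the highest r were the glycolytic gene *Aldoa* (0.22), the mitophagy gene *Bnip3* (0.22) and the lipid droplet gene *Hilpda* (0.18), followed by *Cox6a2*, *Mt1* and *Cebpb*. In TKO2 they were the metallothionein genes *Mt2* (0.22) and *Mt1* (0.18) and the C/EBP gene *Cebpb* (0.16), followed by *Nars*, *Eif4ebp1*, *Eif1*, *Mthfd2*, *Mycn*, *Zfos1* and *Psat1*, of which *Cebpb*, *Nars*, *Eif4ebp1*, *Mthfd2* and *Psat1* were on the lists of ATF4 targets and tRNA synthetases. Summed over lists, the ATF4 arm had r = 0.24 in TKO1 and 0.04 in TKO2 with 14 hypoxia genes. With 35 other ATF4 targets it had 0.24 and 0.23, and with 20 immediate early and heat shock genes 0.14 and 0.10. With 13 aminoacyl-tRNA synthetases and related genes it had 0.04 and 0.14. Without the cilium-led cluster the TKO1 values were 0.16 (hypoxia), 0.17 (other ATF4 targets), 0.19 (immediate early and heat shock) and -0.0022 (synthetases).

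For the ER arm, *Herpud1* and *Hspa5* summed, the first gene was *Manf* in both tumors (0.16 in each), an ER stress-induced secreted factor. *Serp1*, *Pdia4*, *Pdia6* and *P4hb* were among the first 10 in TKO1, and *Pdia6* and *Dnajb11* in TKO2, all but *Serp1* from the list of ER chaperones and degradation genes. With that list of 25 genes the ER arm had r = 0.21 in TKO1, or 0.12 without the cilium-led cluster, and 0.19 in TKO2. The ER arm and the ATF4 arm had r = 0.16 with each other in TKO1 and 0.10 in TKO2, and with the UMIs of a cell before thinning the ATF4 arm had r = -0.02 in TKO1 and -0.01 in TKO2.

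The wider pathway is given by lists, whose counts are to be read beside the 23.2% of all genes at least 2-fold higher in TKO1 and the 18.7% at least 2-fold higher in TKO2. Of 32 measured other ATF4 targets, 16 were at least 2-fold higher in TKO2 and 4 in TKO1, with a median relative log2 ratio of -0.98 where that of all genes is 0. Genes of amino acid supply were found in both sets, among the TKO2-high ones and among those within 2-fold, such as *Mthfd2*, *Psph* and *Slc38a2*. *Psat1*, of serine synthesis, had 22 UMIs in TKO1 and 1036 in TKO2, or 133 CPM there, *Phgdh*, the first enzyme of serine synthesis, 10.2 and 139 CPM in TKO1 and TKO2, and the translation repressor gene *Eif4ebp1* 45.9 and 267 CPM. *Cth* had 1 UMI in TKO1 and 239 in TKO2, a log2 ratio of -7.02 (-12.3 to -4.53), and *Cbs* had 0 and 69 UMIs, at least 12.5-fold higher in TKO2 with a floor of 3 UMIs for TKO1. At 1000 UMIs *Psat1* was detected in 0.419% of TKO1 cells and 10.8% of TKO2 cells, and *Phgdh* in 0.977% and 11.4%. The list also counts *Ndufa4l2*, better known as a hypoxia gene, among the TKO2-high ones. Those at least 2-fold higher in TKO1 were *Cebpb* (356 and 89.4 CPM), *Sesn2*, *Slc6a9* and *Ero1l*, which is on the hypoxia list too.

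**Figure D5:**
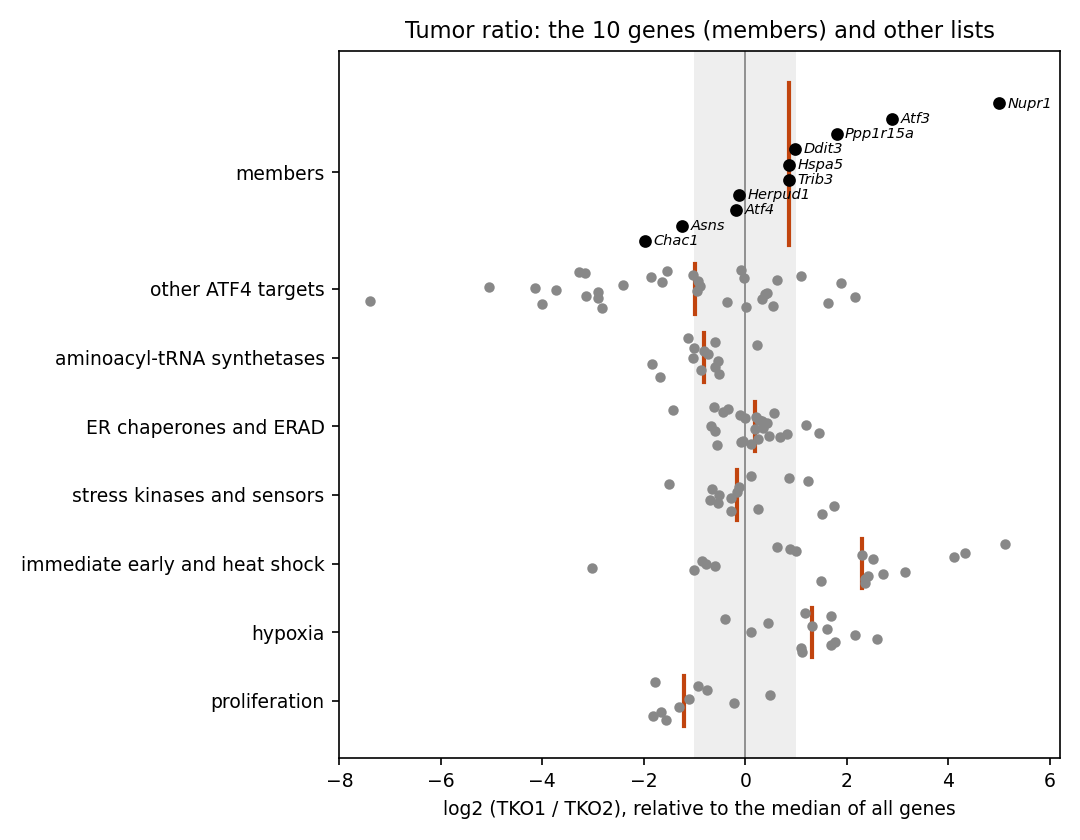
Relative log2 ratio of TKO1 over TKO2 for the 10 genes (black, named) and for the genes of 7 other lists with at least 10 UMIs (grey, 1 point per gene, spread vertically for legibility); red lines are list medians and the grey band is within 2-fold. Other ATF4 targets and synthetases lie mostly left of 0 with *Asns* and *Chac1*, immediate early and hypoxia genes mostly right of 0 with *Atf3* and *Nupr1*; *Cbs*, at 0 UMIs in TKO1, is drawn at its bound.

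The tRNA synthetases, a further group raised by ATF4, had 5 of 13 genes at least 2-fold higher in TKO2 (*Iars*, *Aars*, *Yars*, *Mars* and *Tars*) and 0 in TKO1, with a median of -0.81. The 25 ER chaperones and degradation genes stayed near 0 with a median of 0.19, 2 higher in TKO1 (*Os9* and *Dnajc3*) and 1 in TKO2 (*Syvn1*). Of 15 kinases, sensors and initiation factors, 3 were higher in TKO1 (*Eif2ak2*, *Atf6* and *Ern1*) and 1 in TKO2 (*Eif2s1*, which encodes eIF2alpha), neither share above that of all genes, while the ER stress kinase gene *Eif2ak3* (6.39 and 7.22 CPM) and the amino acid-sensing kinase gene *Eif2ak4* (4.49 and 5.67 CPM) were within 2-fold.

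Other lists were also higher in TKO1, as *Atf3*, *Ppp1r15a* and *Nupr1* were. Of 19 immediate early and heat shock genes 11 were at least 2-fold higher in TKO1 and 2 in TKO2, with a median of 2.30. *Fos* had 3547 and 420 CPM and *Junb* 3156 and 122 CPM, while of the heat shock genes *Hspa1a* and *Hsp90aa1* were higher in TKO2 and *Dnajb1* in TKO1. In macrophage-like cells the same list summed to 10405 CPM in TKO1 and 8501 CPM in TKO2, a log2 ratio of 0.29 (0.19 to 0.39). This is a ratio of plain CPM sums and is not on the scale of 2.30, a median of relative ratios of single genes. Of 13 hypoxia genes 10 were higher in TKO1 and 0 in TKO2, with a median of 1.32, and of 10 proliferation genes 6 were higher in TKO2 and 0 in TKO1. The part of these responses in the levels of the 10 genes was not tested.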

How the data were processed

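For each of the 2 tumors the authors deposited 1 matrix of raw UMI counts, with its gene and barcode lists. The submitters' processing notes name Cell Ranger, Seurat and the build mm10 (the same assembly as GRCm38), and versions were not given in the sources used here. The counts were not changed. How Cell Ranger treats reads shared by overlapping genes could lower such genes.

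The 10 genes and all lists were chosen with earlier results of these data known. Cells with more than 500 detected genes and under 10% mitochondrial UMIs were clustered per tumor with Seurat 5.3.0 in R 4.3.3 (1000 variable genes, 10 components, resolution 0.8). A type other than neuroendocrine needed 3 markers with at least 10 UMIs in the cluster and at least 10-fold above the other cells, a limit set after seeing the data. Each fold was taken after 10 CPM were added to both sides. A cluster with club markers and at least 8 neuroendocrine markers stayed unnamed. Doublets were scored with Scrublet (scanpy 1.11.5). UMIs were summed per class and scaled to CPM, with exact Poisson intervals for levels, conditional binomial intervals for ratios and exact Clopper-Pearson intervals for shares (Python 3.11.15, scipy 1.17.1). PCR duplicates were collapsed by UMI. TMM factors came from edgeR 4.0.16, which was used for no test. Cells were thinned to 1000 UMIs with seed 1, and genes averaging under 0.05 UMIs per thinned cell were left out of ranked correlates. The ratio, the thinning and the correlation were tested on simulated data.

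Named genes are the 10 genes, the listed genes, cell type markers and the 10 highest correlates of each arm in each tumor. Positions come from GENCODE M21 and promoters from RefSeq (GRCm38.p6). Alternatives covered the cell filters, resolution, doublet scores, scaling, clusters left out and thinning depth. The removal of the cilium-led cluster alone, and of clusters led by other types from both tumors, was added after seeing the data. Led by other types means more markers of another type than neuroendocrine markers among the 10 leading genes of a neuroendocrine-marker cluster. Besides the cilium-led cluster, this rests on 1 marker each. These were *Dcn* in a TKO1 cluster of 382 cells and *Vwf* in the TKO2 cluster of 494 cells, so neither is read as another cell type.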

Additional observations from a re-analysis of the deposited data

Results flagged for a closer look

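Barcodes with 500 or fewer detected genes were outside every comparison, but held UMIs of the 10 genes above the limit that a count of 0 allows. In TKO1 the 1321 such barcodes summed to 2662 CPM (2544 to 2784, 1912 UMIs), and in TKO2 the 248 such barcodes summed to 1080 CPM (936 to 1240, 201 UMIs). *Nupr1* had 1104 CPM in those of TKO1 and 145 CPM in those of TKO2, and *Asns* 97.4 and 96.7 CPM. The limits for a count of 0 were 4.18 and 16.1 CPM.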

How the results depend on the processing

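No paired analysis was possible because each tumor has 1 library, and no replicate could be left out. For the 10 genes, the summed CPM moved to 2695 (TKO1) and 862 (TKO2) with more than 1000 genes per cell, to 3228 and 1202 when mitochondrial and ribosomal protein genes were taken out of the total, and in TKO1 to 2799 over all retained cells. Their median log2 ratio, 1.23, was 1.45 with more than 1000 genes, 0.85 with TMM factors, 0.84 without the TKO1 clusters led by markers of other types, 0.77 when such clusters were left out of both tumors (in TKO2 a cluster of 494 cells, added after seeing the data) and 0.72 without the cilium-led cluster. *Atf4* turned to -0.037 without mitochondrial and ribosomal protein genes and -0.19 with TMM, and *Herpud1* to -0.13 with TMM, -0.0050 without the TKO1 clusters led by other types and -0.057 without those of both tumors. With TMM the medians of the lists were -0.16 (kinases and sensors), -0.82 (synthetases), 0.18 (ER chaperones), 2.29 (immediate early), 1.31 (hypoxia) and -1.22 (proliferation). The share of cells with any of the 10 genes was 64.5%, 95.04% and 86.7% in TKO1 and 32.8%, 75.0% and 73.5% in TKO2 at 500 UMIs, at 2000 UMIs and without thinning. The highest over lowest summed CPM among TKO1 clusters, 2.88, was 3.93 with all genes and 2.35 at resolution 0.4. The macrophage-like level of TKO1 was 986 CPM with more than 200 genes per cell. Another 37 summary values stayed within their counting interval or, for counts, within 1.5 times, and *Nupr1*, *Atf3*, *Ppp1r15a* and *Chac1* stayed past 2-fold in the same direction on the relative scale in the 7 alternatives that can change it (another total or TMM cannot). The others near 2-fold ran from 0.17 to 1.88 (*Trib3*), 0.54 to 1.12 (*Ddit3*), 0.80 to 1.10 (*Hspa5*) and -1.34 to -0.82 (*Asns*). With more than 1000 genes the split of 3 and 2 became 6 and 1. In that setting the cells used in TKO2 were only a part of those past the limit. *Ddit3* with *Trib3* had r from 0.08 to 0.17 in TKO1 and from -0.01 to 0.12 in TKO2 over thinning depths. The causes were not tested. Depth limits *Trib3* and *Chac1* most, with 107 and 29 UMIs in TKO1.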
